A study of Mus musculus with 64 samples.

Results

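Knockout and wild type hearts under pressure overload were compared at the late time points of the series, 4 and 8 weeks after surgery. KOTAC hearts of weeks 4 and 8 were compared with WTTAC hearts of the same weeks, within each week, and the differences at both weeks were averaged. The comparison holds 16 of the 64 hearts of the series, with 4 KOTAC hearts and 4 WTTAC hearts at each week. KOTAC stands for Ndufs4 knockout mice with transverse aortic constriction (TAC), and WTTAC stands for wild type mice with the same surgery. All mice were C57BL6 males operated at an age of 3 to 4 months, and TAC was made by tying a ligature around the aorta against a blunt needle. The knockout mice carried floxed Ndufs4 and a transgene that expresses Cre under the αMHC promoter, which is active in cardiomyocytes, so that other cells of the heart keep the gene. The sources used here do not say whether the wild type mice carried Cre or the floxed allele. The other groups used below were KOSH and WTSH, knockout and wild type mice with sham surgery, and the TAC hearts of weeks 1 and 2. RNA of whole cardiac tissue was measured, 1 library per heart.

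Complex I is the first enzyme of the mitochondrial respiratory chain. It oxidises NADH, passes the electrons to ubiquinone and pumps protons across the inner membrane, and NDUFS4 is an accessory subunit needed for its stable assembly. TAC narrows the aorta and raises the load on the left ventricle, which hypertrophies, makes natriuretic peptides, deposits matrix and lowers its oxidation of fatty acids as it fails. Disturbed mitochondria can also switch on the integrated stress response, in which the transcription factor ATF4 raises genes of amino acid synthesis, one-carbon metabolism and secreted mitokines such as GDF15.

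The values were FPKM (fragments scaled by the length of the transcript and the number of mapped fragments) as deposited by the authors, analysed as log2(FPKM + 1) over 13653 genes. Fold changes are therefore differences of log2(FPKM + 1), which understate the change of low genes. The read depth of the libraries is unknown from FPKM. In the 16 hearts, 12114 to 12379 genes of KOTAC libraries and 12006 to 12497 genes of WTTAC libraries had an FPKM of 1 or more. A gene was called where the adjusted p of limma (Benjamini-Hochberg, over all genes tested) was under 0.05.

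Some hearts stood apart from their group. Over the 5000 genes of highest variance, 3 of the 16 hearts resembled the sham hearts of their week more than the TAC hearts: heart 3 of the KOTAC group at week 4 and heart 2 of the WTTAC group at each week. Mean Pearson's r with the TAC hearts and with the sham hearts was 0.0136 and 0.0447 for this KOTAC heart, -0.0903 and 0.121 for the WTTAC heart of week 4, and -0.00638 and 0.11 for the WTTAC heart of week 8. The mean log2(FPKM + 1) of 26 stress and fetal genes was 6.92 in the KOTAC heart, 5.81 in the WTTAC heart of week 4 and 6.23 in the WTTAC heart of week 8. In the 16 sham hearts of weeks 4 and 8 it ranged from 5.28 to 6.81. Both WTTAC hearts thus lay within the range of sham hearts in this list and the KOTAC heart just above it. Whether the constriction differed in these hearts was not tested, and the results below are given with all hearts and, for the called genes and the lists described most closely, without the 2 WTTAC hearts near sham or all 3 hearts.

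Atrial markers also set some hearts apart, among them KOTAC heart 3 of week 4, one of the 3 hearts near sham. The mean log2(FPKM + 1) of 11 tested atrial markers was 4.28 in KOTAC heart 3 of week 4, against 5.03 and 4.08 in WTTAC hearts 1 and 3 of week 4 and 5.18 in heart 5 of the WTTAC group at week 8, and it was 3.00 to 3.62 in the other 12 hearts. Myl7, the atrial myosin light chain, had 16.6 FPKM in this KOTAC heart, against 89.3, 8.03 and 104 FPKM in these WTTAC hearts, and 1.27 FPKM or less in the others. The summed atrial markers, which include Nppa, ranged from 2790 to 12193 FPKM in KOTAC hearts and from 585 to 10904 FPKM in WTTAC hearts. The comparison was therefore also made without heart 1 of the WTTAC group at week 4 and heart 5 at week 8, called the 2 atrial-high WTTAC hearts here. KOTAC heart 3 and WTTAC heart 3 of week 4 were kept in that run, so that it does not remove all hearts with raised atrial markers.

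Few genes differed between KOTAC and WTTAC hearts at this threshold. Of 13653 genes, 7 were called (0.0513%), 4 higher (0.0293%) and 3 lower (0.022%) in KOTAC hearts. The genes that rose were Gdf15, Gdf6, Psca and Arc, and those that fell were Ndufs4 itself, Angpt1 and the pseudogene Gm15151. At an unadjusted p under 0.05, 671 genes were higher (4.91%) and 333 lower (2.44%). The median difference of all genes was 0.03 on the log2 scale, -0.01 at week 4 and 0.06 at week 8, and 8364 genes (61.3%) were above 0. Scaled by the median of ratios, 575 genes had higher and 534 had lower values at that p, around a median of 0.00. With quantile normalization, 10 genes were called, of which 4 were higher and 6 lower. Without the 2 WTTAC hearts near sham, 2 genes were called (Ndufs4 and Angpt1), and without all 3 hearts, 3 genes (Ndufs4, Angpt1 and Gdf6). Leaving out the 2 atrial-high WTTAC hearts instead, 2 genes were called (Ndufs4 and Psca). With a pseudocount of 0.1, 5 genes were called, all lower, and none of the 4 that rose was among them. With only the 32 TAC hearts in the model 1 gene was called, and with only the 16 hearts compared 5 genes, of which 2 (Ndufs4 and Gm15151) are among these 7. The count was 4 when any 1 of 5 hearts was left out (KOTAC heart 2, KOTAC heart 5 or WTTAC heart 2 of week 4, KOTAC heart 4 or WTTAC heart 5 of week 8), and 18 without KOTAC heart 2 of week 8.

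Ndufs4 was lower in each KOTAC heart than in each WTTAC heart. At week 4, Ndufs4 had 25.2, 30.4, 37.4 and 21.7 FPKM in KOTAC hearts, against 100.5, 103, 92.9 and 105 FPKM in WTTAC hearts. At week 8, it had 25.1, 27.1, 25.4 and 22.2 FPKM in KOTAC hearts, against 113, 83.3, 78.0 and 86.2 FPKM in WTTAC hearts. The mean was 26.8 ± 5.09 FPKM (SD, n = 8) in KOTAC hearts and 95.3 ± 12.2 FPKM (SD, n = 8) in WTTAC hearts, so that knockout hearts held 0.281 of the wild type level. Its log2 difference was -1.80 (standard error 0.134, adjusted p = 2.64e-14 from limma). It was -1.80 at each of weeks 4 and 8, and its range over 31 alternative settings was -1.87 to -1.71, with the gene called in each. In bulk tissue, fewer deleted cells and less RNA per cell cannot be told apart, and the FPKM sums over transcripts, so that the remaining signal is not assigned to a cell type or an exon. Ndufs4 lies on the minus strand of mm9 at chr13:115078003-115178302. Among its 25 tested neighbours within 5 Mb, none was called and 4 had an unadjusted p under 0.05 (1004 of all genes, 7.35%).

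Gdf15, a secreted cytokine of the TGF-β superfamily that acts on the hindbrain to lower food intake and is used as a marker of mitochondrial and cardiac stress, had the largest rise among called genes. At week 4, Gdf15 had 7.50, 15.6, 5.24 and 7.73 FPKM in KOTAC hearts, against 4.83, 0.574, 8.23 and 4.24 FPKM in WTTAC hearts. Its week 8 values were 19.2, 51.5, 66.4 and 18.7 FPKM in KOTAC hearts, against 1.22, 2.68, 6.29 and 12.99 FPKM in WTTAC hearts. The groups overlapped at week 4 and did not overlap at week 8, where 486 of 13653 genes (3.56%) separated with KOTAC hearts higher. The log2 difference was 1.86 (standard error 0.383, adjusted p = 0.0270 from limma), with 1.03 at week 4 (not called, adjusted p = 1.0) and 2.68 at week 8 (adjusted p = 0.0373). Both WTTAC hearts near sham held the lowest values of their week. Without them the log2 difference of Gdf15 was 1.39 (adjusted p = 0.576 from limma), and it was not called. The call was also lost without any 1 of 7 hearts (KOTAC hearts 2 or 5 and WTTAC heart 2 of week 4, KOTAC hearts 3 or 4 and WTTAC hearts 2 or 5 of week 8), with adjusted p up to 0.20, while the difference stayed between 1.60 and 2.09. It was 1.82 without the 2 atrial-high WTTAC hearts (not called, adjusted p = 0.0990). TAC also raised the gene in wild type hearts, by 1.70 on the log2 scale against WTSH hearts of weeks 4 and 8 (adjusted p = 0.000946 from limma), a comparison that shares the WTTAC hearts. Sham hearts of these weeks held 0.517 to 3.19 FPKM in KOSH and 0.273 to 0.945 FPKM in WTSH mice.

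Gdf6, another ligand of the TGF-β superfamily that belongs to the bone morphogenetic proteins and is known for its part in joint and eye development, rose with a smaller and lower signal. At week 4, Gdf6 had 0.756, 4.21, 0.502 and 2.39 FPKM in KOTAC hearts, against 0.836, 0.307, 0.694 and 0.638 FPKM in WTTAC hearts. KOTAC hearts of week 8 had 1.90, 6.20, 4.32 and 4.32 FPKM, against 0.429, 1.52, 2.76 and 1.66 FPKM in WTTAC hearts. The groups overlapped at each week, with KOTAC hearts 2 and 5 setting the difference at week 4. The log2 difference was 0.86 (standard error 0.170, adjusted p = 0.0171 from limma). It was 0.68 and not called without the 2 WTTAC hearts near sham (adjusted p = 0.446 from limma), and 0.81 and called without all 3 hearts. Leaving out any 1 of 6 hearts also ended the call (KOTAC hearts 2 or 5 or WTTAC heart 2 of week 4, KOTAC hearts 3 or 4 or WTTAC heart 2 of week 8), with adjusted p up to 0.141. Without the 2 atrial-high WTTAC hearts Gdf6 was at 0.89 (not called, adjusted p = 0.0520 from limma). In sham hearts Gdf6 stayed at or under 0.477 FPKM in KOSH and 0.251 FPKM in WTSH mice.

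Psca and Arc are low genes that lie 42.3 kb apart on chromosome 15 of mm9. Psca encodes a small GPI-anchored surface protein first described in prostate, and Arc encodes an immediate early protein known from synapses. At week 4, Psca had 1.21, 1.23, 0.521 and 0.760 FPKM in KOTAC hearts, against 0.691, 0, 0.316 and 0.187 FPKM in WTTAC hearts. The values at week 8 were 1.13, 2.26, 2.63 and 2.83 FPKM in KOTAC hearts, against 0.115, 0.655, 1.83 and 1.21 FPKM in WTTAC hearts. The lowest value of Psca in each week was that of the WTTAC heart near sham. Its log2 difference was 0.67 (standard error 0.122, adjusted p = 0.00830 from limma), and 0.49 without the 2 WTTAC hearts near sham (not called, adjusted p = 0.209 from limma) but 0.71 without the 2 atrial-high ones (called, adjusted p = 0.00817). At week 4, Arc had 0.798, 1.29, 1.46 and 2.69 FPKM in KOTAC hearts, against 1.20, 0.569, 0.644 and 0.374 FPKM in WTTAC hearts. At week 8, it had 3.57, 1.14, 2.34 and 0.645 FPKM in KOTAC hearts, against 1.14, 0.573, 0.463 and 0.652 FPKM in WTTAC hearts. The groups of Arc overlapped at each week. Its log2 difference was 0.62 (standard error 0.134, adjusted p = 0.0448 from limma), and its call was lost when any 1 of 11 hearts was left out. These were KOTAC hearts 2, 3 and 5 and WTTAC hearts 2, 3 and 4 of week 4, and KOTAC hearts 2 and 4 and WTTAC hearts 5, 6 and 7 of week 8, with adjusted p up to 0.225. Arc was at 0.67 and not called both without the 2 WTTAC hearts near sham (adjusted p = 0.127) and without the 2 atrial-high ones (adjusted p = 0.0520). Of 7 tested neighbours of both genes within 500 kb, none had an unadjusted p under 0.05 (7.35% of all genes).

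Angpt1, which encodes the angiopoietin that activates the endothelial receptor TIE2 and keeps vessels stable, fell. At week 4, Angpt1 had 2.57, 2.57, 3.10 and 2.91 FPKM in KOTAC hearts, against 5.08, 4.82, 4.47 and 2.89 FPKM in WTTAC hearts. Its week 8 values were 1.34, 2.17, 1.60 and 2.25 FPKM in KOTAC hearts, against 3.45, 8.30, 4.62 and 2.65 FPKM in WTTAC hearts. The groups did not overlap at week 8, where 91 of 13653 genes (0.667%) separated with KOTAC hearts lower. At week 4 WTTAC heart 4 lay between KOTAC hearts. The log2 difference was -0.71 (standard error 0.134, adjusted p = 0.0121 from limma), with -0.47 at week 4 (not called) and -0.94 at week 8 (adjusted p = 0.0373). Leaving out the 2 WTTAC hearts near sham left it at -0.73 and called by a narrow margin (adjusted p = 0.0499 from limma), as did leaving out all 3 hearts (-0.75). The same gene was 0.37 lower on the log2 scale in KOSH than in WTSH hearts of these weeks without being called, and TAC itself lowered it in wild type hearts by 0.52 (adjusted p = 0.00392 from limma). Its call was lost without WTTAC heart 5 of week 8 (adjusted p = 0.0744). That heart and heart 1 of the WTTAC group at week 4 had the highest value of their week, 8.30 and 5.08 FPKM, and they are the 2 atrial-high WTTAC hearts. Without both, the log2 difference of Angpt1 was -0.54 and not called (adjusted p = 0.119 from limma).

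Gm15151 is a pseudogene of 177 bases on chromosome X. Only uniquely mapped reads were kept, so that reads matching near-identical copies equally well would not be counted, and its value is uncertain. At week 4, Gm15151 had 12.5, 19.2, 20.1 and 16.3 FPKM in KOTAC hearts, against 43.3, 38.9, 27.5 and 38.6 FPKM in WTTAC hearts. KOTAC hearts of week 8 had 14.3, 13.8, 14.0 and 10.4 FPKM, against 26.9, 20.05, 18.3 and 26.2 FPKM in WTTAC hearts. The groups did not overlap at either week (10 of 13653 genes with KOTAC hearts lower, 0.0732%). The log2 difference was -0.91 (standard error 0.176, adjusted p = 0.0121 from limma), and -0.86 without the 2 WTTAC hearts near sham (not called, adjusted p = 0.158) or -0.90 without the 2 atrial-high ones (not called, adjusted p = 0.0520). In sham hearts the difference between KOSH and WTSH was -0.50 at week 4 and 0.45 at week 8 on the log2 scale, neither called.

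**Figure D1:**
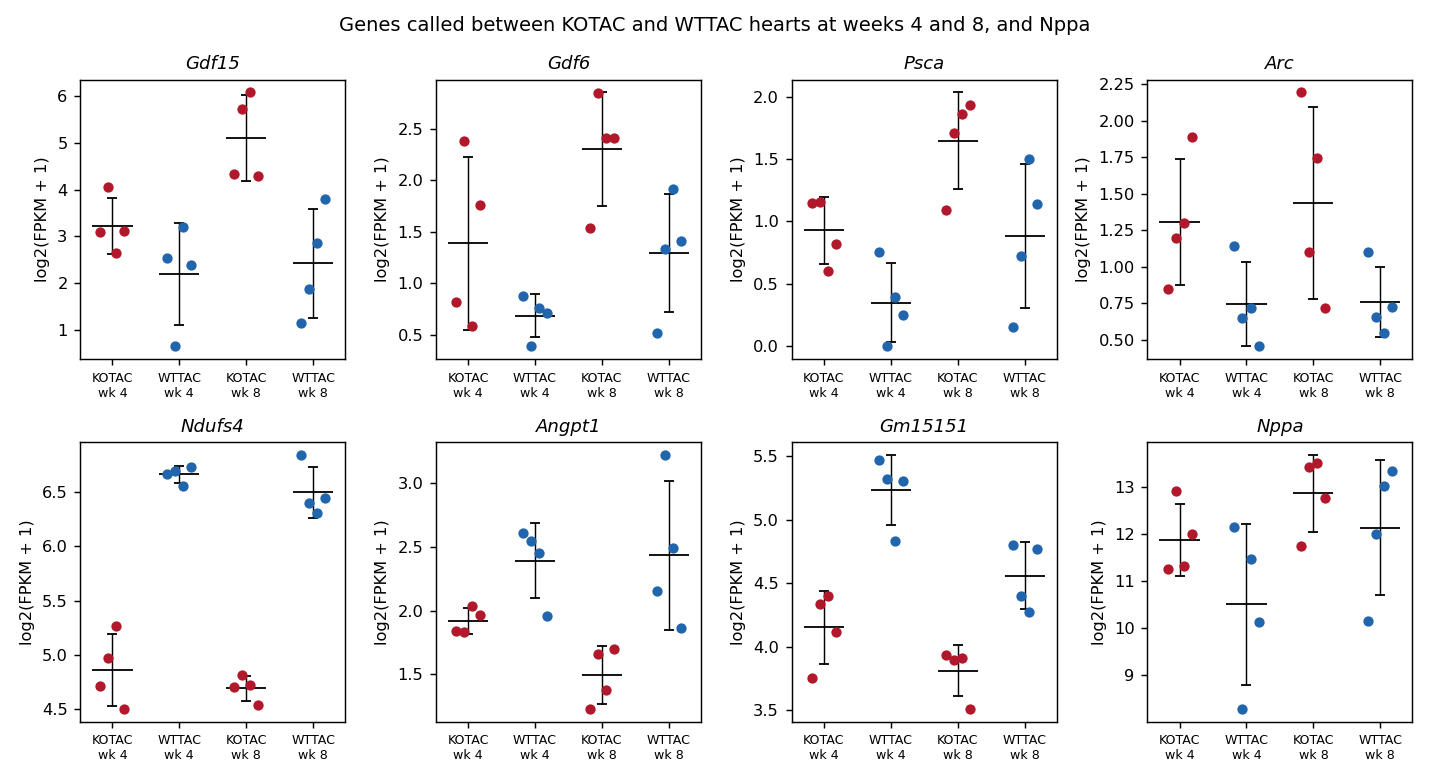
Level of the 7 called genes and of Nppa in each heart as log2(FPKM + 1), with KOTAC hearts in red and WTTAC hearts in blue at weeks 4 and 8, the mean as a line and the SD as bars (n = 4). Ndufs4 and Gm15151 separate the genotypes at both weeks, Gdf15 and Angpt1 at week 8, and the other genes overlap.

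The 7 genes were also tested one at a time by an exact permutation test that shuffled genotype within each week (two-sided, 4900 arrangements, smallest p 0.000408). The p was 0.000408 for Ndufs4 and Gm15151, 0.00122 for Angpt1, 0.00286 for Gdf15, 0.00531 for Psca, 0.00857 for Arc and 0.0118 for Gdf6, with no adjustment for the choice of genes. Because limma had called these genes on the same hearts, small p values followed from that choice and are no independent support.

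The course over all 4 weeks differed from gene to gene. The KOTAC minus WTTAC difference of Gdf15 was -0.09 at week 1, 0.82 at week 2, 1.03 at week 4 and 2.68 at week 8 on the log2 scale. Psca was above 0 at each week, with 0.29, 0.56, 0.58 and 0.76. Gdf6 was -0.49 at week 1, 0.47 at week 2, 0.70 at week 4 and 1.01 at week 8. Arc and Gm15151 were within 0.07 of 0 at weeks 1 and 2 and showed their differences at weeks 4 and 8. Angpt1 was below 0 at each week, with -0.27, -0.65, -0.47 and -0.94. No gene had a different effect at weeks 4 and 8 than at weeks 1 and 2 after adjustment over all genes (0 of 13653 called in limma, 1678 or 12.3% at an unadjusted p under 0.05). For Gdf15 the late minus early difference was 1.49 (unadjusted p = 0.00829, adjusted p = 0.328 from limma). Likewise, 0 genes were called for a different effect at week 8 than at week 4 (418 or 3.06% unadjusted) or in TAC than in sham hearts of these weeks (1577 or 11.6% unadjusted). The median of all genes was 0.13 for late minus early and 0.12 for TAC minus sham. With median-of-ratios scaling these medians were 0.01 and 0.00, and the unadjusted counts were 523 for each, with 0 genes called. For Gdf15 the TAC minus sham difference was 1.33 (unadjusted p = 0.0172, adjusted p = 0.378 from limma). Tested alone, week 4 had 1 called gene, Ndufs4 (0.00732%), and week 8 had 3, Gdf15, Angpt1 and Ndufs4 (0.022%). The count of week 4 was 2 without KOTAC heart 5. That of week 8 was 1 without KOTAC heart 3 or WTTAC heart 5, 6 without WTTAC heart 6 and 18 without KOTAC heart 2. The KOTAC against WTTAC comparison of weeks 1 and 2 had 45 called genes (0.33%), of which 44 were lower (0.322%), with a median of all genes at -0.10.

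**Figure D2:**
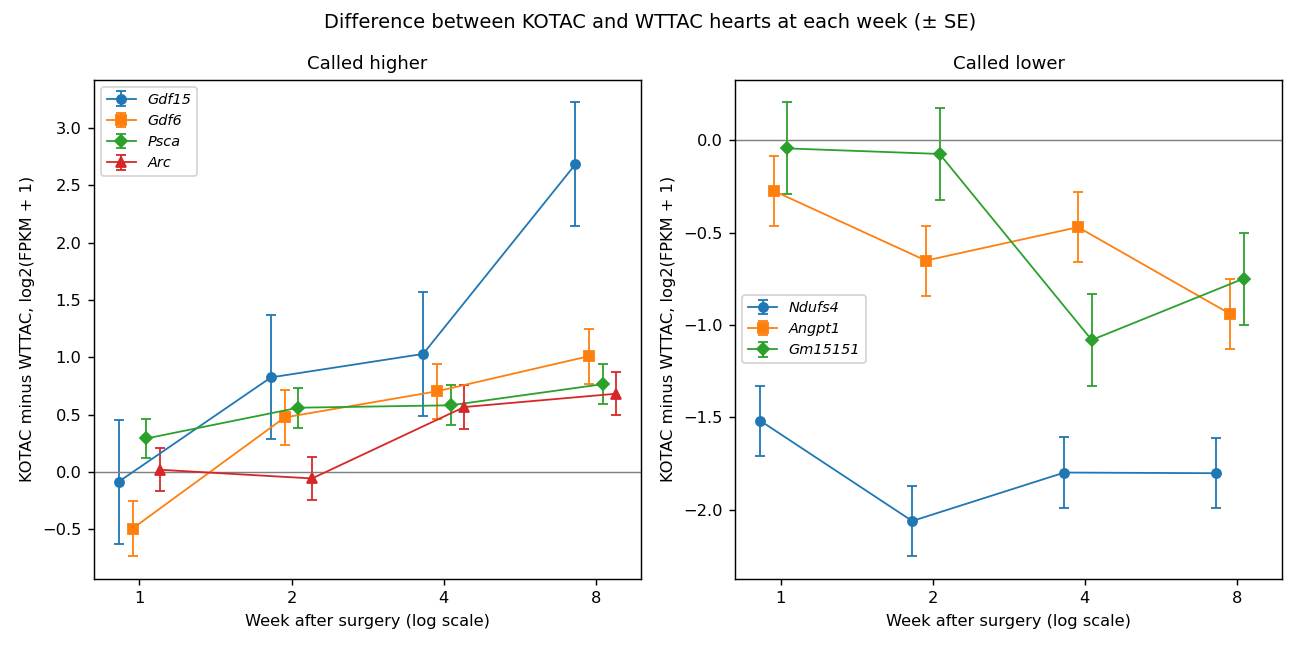
Difference between KOTAC and WTTAC hearts of the 7 called genes at weeks 1, 2, 4 and 8 (log axis of time) in log2(FPKM + 1), with the standard error of limma as bars (4 hearts against 4 at each week). Gdf15 goes from -0.09 at week 1 to 2.68 at week 8, and Ndufs4 lies between -2.06 and -1.52 throughout.

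Among the genes next in order of p, none was called. Those with higher values in KOTAC hearts included Comtd1 (0.65, adjusted p = 0.102), a methyltransferase-like protein, Slc22a4 (0.56, adjusted p = 0.171), a transporter of ergothioneine and organic cations, Slc9a3 (0.49, adjusted p = 0.171), a sodium-hydrogen exchanger, and Inhbb (0.42, adjusted p = 0.171), the βB subunit of activins and inhibins, all from limma. At week 4, Inhbb had 0.602, 0.695, 0.667 and 2.61 FPKM in KOTAC hearts, against 0.535, 0.386, 0.809 and 0.581 FPKM in WTTAC hearts. The values at week 8 were 1.63, 2.28, 2.32 and 1.20 FPKM in KOTAC hearts, against 0.854, 0.833, 1.17 and 1.22 FPKM in WTTAC hearts. The groups of Inhbb overlapped at both weeks. Downward, Gm5292 had -0.81 (adjusted p = 0.0744), Gfra4, a co-receptor of the GDNF family, had -0.56 (adjusted p = 0.0998) and Maob, a monoamine oxidase of the outer mitochondrial membrane, had -0.40 (adjusted p = 0.202), also from limma. Of the 25 genes with the smallest p among those lower in KOTAC hearts, 9 were pseudogenes. Tested genes with an assigned biotype included 1120 pseudogenes and 11711 protein-coding genes. At an unadjusted p under 0.05, 3.21% of these pseudogenes and 2.39% of these protein-coding genes had a lower value.

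The ATF4 list holds Gdf15 and the enzymes, transcription factors and chaperones that ATF4 and the mitochondrial stress response are known to raise. Of its 28 tested genes, 25 were above 0 (61.3% of all genes), and the median difference was 0.14, against 0.03 for all genes. With median-of-ratios scaling, and also with quantile normalization, 21 were above 0 and 7 below, at a median of 0.11. Besides Gdf15, no member was called, and 9 members had an unadjusted p under 0.05 with a higher value in KOTAC hearts (671 of all genes, 4.91%), none with a lower. They were Gdf15, Mthfd2 and Mthfd1l (mitochondrial one-carbon metabolism), Atf3 and Atf4 (transcription factors of the response), Sars (seryl-tRNA synthetase), Slc3a2 (a chain of amino acid transporters), Pycr1 (proline synthesis) and Nupr1 (a stress-induced nuclear protein). In the model that leaves out the 2 WTTAC hearts near sham the median was 0.09, 25 members were above 0 (56.1% of all genes) and 4 had an unadjusted p under 0.05 with a higher value (2.34% of all genes). Without all 3 hearts the median was 0.08 with 3 such members. At weeks 1 and 2 the median of the list was -0.02, and in sham hearts of weeks 4 and 8 it was also -0.02, where the medians of all genes were -0.10 and -0.09. Averaged over the list, the 4 KOTAC hearts of week 8 lay at 3.58 to 3.76, above the 4 WTTAC hearts at 3.21 to 3.54, and at week 4 the hearts overlapped. This average includes the called gene Gdf15. Over all genes, the median difference at week 8 was 0.06 and 68.7% of genes were above 0.

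Mthfd2 was one of the genes whose hearts did not overlap at either week (6 of 13653 genes with KOTAC hearts higher, 0.0439%). At week 4, Mthfd2 had 2.52, 2.61, 5.23 and 3.09 FPKM in KOTAC hearts, against 2.33, 0.821, 2.04 and 2.00 FPKM in WTTAC hearts. At week 8, it had 3.40, 4.21, 4.43 and 4.43 FPKM in KOTAC hearts, against 1.25, 1.85, 2.69 and 2.45 FPKM in WTTAC hearts. Its log2 difference was 0.70 (adjusted p = 0.363 from limma, not called). Atf3 rested on single hearts. At week 4, Atf3 had 3.43, 2.44, 2.31 and 22.4 FPKM in KOTAC hearts, against 2.72, 1.98, 4.02 and 2.97 FPKM in WTTAC hearts. Its week 8 values were 6.67, 6.62, 14.5 and 5.66 FPKM in KOTAC hearts, against 6.16, 2.77, 7.32 and 4.86 FPKM in WTTAC hearts. KOTAC heart 5 of week 4 and KOTAC heart 4 of week 8 stood above all others of their week, and the log2 difference was 0.58 (adjusted p = 0.545 from limma, not called).

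**Figure D3:**
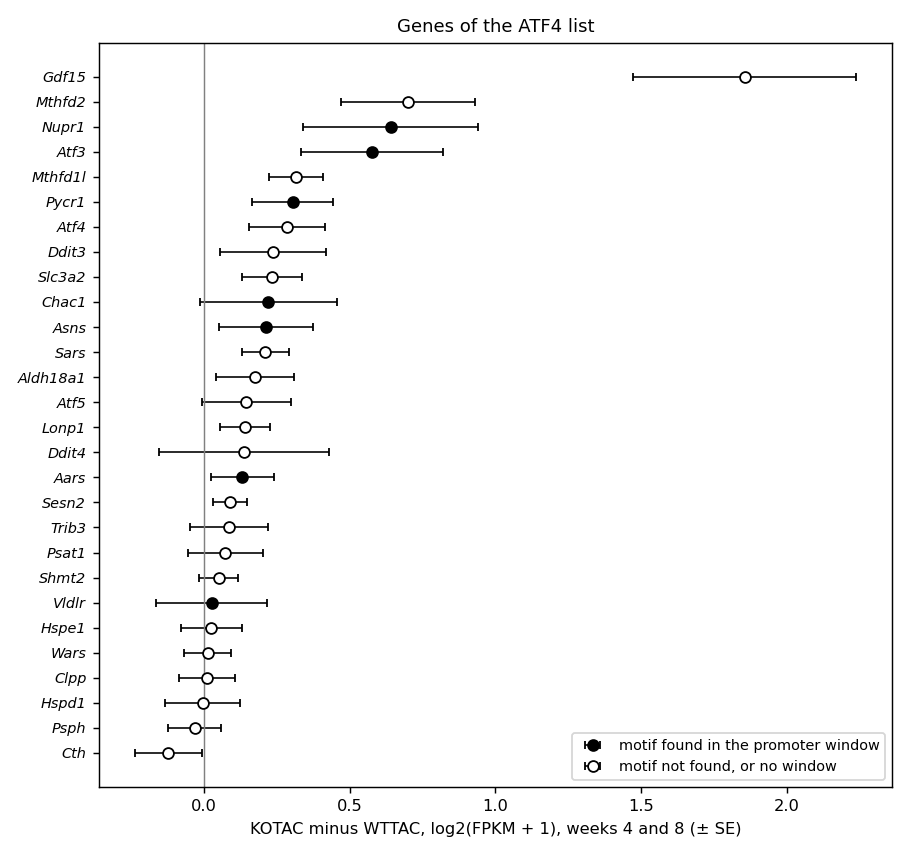
KOTAC minus WTTAC difference of the 28 tested genes of the ATF4 list at weeks 4 and 8 in log2(FPKM + 1), with the standard error of limma as bars, and filled points for genes whose promoter window holds the motif TGATGNAAN. Gdf15 at 1.86 is the one called gene, 25 genes lie above 0, and filled points are spread from 0.03 to 0.64.

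ATF4 binds the C/EBP-ATF response element, and the promoters of the list were searched for it as the letters TGATGNAAN, or NTTNCATCA on the other strand, in the 250 bases before each RefSeq start (GRCm38.p6, a later build than the mm9 of the files, so that these coordinates are not to be mixed with those above). The element was found in the windows of 7 of 26 list genes with a window (26.9%), in 212 of 8858 tested genes (2.39%) and in 1129 of all 32851 windows (3.44%). Of the called genes, Gdf15 and Ndufs4 had windows, and neither held these letters. A match is a description of the letters, not of a site in use. The list was made of genes that ATF4 and the mitochondrial stress response are known to raise. Its higher share of matches therefore reflects that choice and is no result about these hearts. The 7 matches are shown 5′ to 3′ on the strand of the gene, with the element in capitals:
Atf3, chr1:191183420-191183460: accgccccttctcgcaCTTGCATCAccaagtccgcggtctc
Chac1, chr2:119351032-119351072: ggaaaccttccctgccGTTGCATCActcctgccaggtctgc
Asns, chr6:7693210-7693248: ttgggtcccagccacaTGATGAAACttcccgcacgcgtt
Pycr1, chr11:120643827-120643867: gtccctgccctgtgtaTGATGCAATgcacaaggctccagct
Nupr1, chr7:126625557-126625597: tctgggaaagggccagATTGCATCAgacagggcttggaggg
Aars, chr8:111033713-111033753: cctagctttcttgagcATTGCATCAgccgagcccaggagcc
Vldlr, chr19:27216803-27216843: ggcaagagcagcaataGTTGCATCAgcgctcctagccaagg
The elements of Atf3 and Nupr1 both span bases 111 to 103 before the start. Of these 7 genes, Nupr1 (0.64), Atf3 (0.58) and Pycr1 (0.31) had an unadjusted p under 0.05, while Chac1 (0.22, a glutathione-degrading enzyme), Asns (0.21, asparagine synthetase), Aars (0.13, alanyl-tRNA synthetase) and Vldlr (0.03, a lipoprotein receptor) did not, all as log2 differences.

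The first window of Gdf15, the largest rise, is given for comparison and lies on the minus strand of GRCm38.p6 at chr8:70632457-70632706:
Gdf15: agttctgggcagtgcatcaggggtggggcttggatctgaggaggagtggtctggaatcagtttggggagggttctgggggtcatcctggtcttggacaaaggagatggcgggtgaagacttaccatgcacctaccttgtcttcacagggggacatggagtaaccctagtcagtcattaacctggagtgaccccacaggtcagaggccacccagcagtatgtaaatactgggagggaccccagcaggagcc
Neither this window nor the second one held the element in full.

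Genes of the cardiac stress and fetal program were higher in KOTAC hearts in all but 1 of 26 tested genes (61.3% of all genes), with a median of 0.38. The median was smaller without the WTTAC hearts near sham. These 2 hearts had the lowest mean of this list in their week. Leaving them out therefore had to lower the mean difference of the list and is no independent check. Among these genes 1 member was called, Gdf15, and 6 had an unadjusted p under 0.05 with a higher value (4.91% of all genes), namely Gdf15, Nmrk2, Ctgf, Synpo2l, Hmox1 and Nppa. Without the 2 WTTAC hearts near sham the median was 0.15, with 20 genes above 0 and 2 genes with an unadjusted p under 0.05. Without all 3 hearts it was 0.17, with 3 such genes. Nppa encodes the atrial natriuretic peptide, which the stressed ventricle makes again. At week 4, Nppa had 2444, 7674, 2545 and 4066 FPKM in KOTAC hearts, against 4524, 310.2, 2823 and 1117 FPKM in WTTAC hearts. KOTAC hearts of week 8 had 3432, 10873, 11656 and 6973 FPKM, against 1139, 4079, 8310.2 and 10365 FPKM in WTTAC hearts. The lowest value of each week was that of the WTTAC heart near sham, and the other hearts overlapped. The log2 difference of Nppa was 1.05 (standard error 0.468, adjusted p = 0.597 from limma), and 0.35 without the 2 WTTAC hearts near sham. For Nppb, the brain natriuretic peptide gene, the difference was 0.63 with all hearts and 0.07 without these 2, and for Myh7, the fetal myosin heavy chain, it was 0.39 and 0.16.

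Nmrk2, a kinase that makes NAD from nicotinamide riboside and that energy-stressed muscle raises, had a larger difference than Nppa. At week 4, Nmrk2 had 7.37, 85.1, 12.7 and 30.3 FPKM in KOTAC hearts, against 11.3, 2.16, 10.9 and 6.33 FPKM in WTTAC hearts. The values at week 8 were 14.0, 206, 104 and 112 FPKM in KOTAC hearts, against 3.02, 19.8, 59.0 and 45.3 FPKM in WTTAC hearts. KOTAC heart 2 was the highest at week 4 and KOTAC heart 3 at week 8, and the groups overlapped at both weeks. Its lowest values, 2.16 and 3.02 FPKM, were those of the WTTAC hearts near sham. The log2 difference was 1.73 (standard error 0.470, adjusted p = 0.202 from limma, not called), and 1.11 without these 2 hearts (adjusted p = 1.0). Of the other 23 tested genes of NAD synthesis and use, Parp3 alone had an unadjusted p under 0.05, and the median of the list was 0.02.

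Matrix genes followed the same pattern. TAC raised them in wild type hearts of these weeks (median 1.21 for matricellular and elastic fibre genes, 0.79 for collagens and crosslinking enzymes). Leaving out WTTAC hearts near sham is therefore no independent check of their difference. Among 41 tested matricellular and elastic fibre genes, 33 were above 0 (61.3% of all genes), and the median was 0.33. With a higher value in KOTAC hearts, 14 had an unadjusted p under 0.05 (4.91% of all genes), but none was called. Without the 2 WTTAC hearts near sham the median was 0.11 and 0 of 41 had a higher value at an unadjusted p under 0.05 (2.34% of all genes). Among 32 collagens and crosslinking enzymes, 29 were above 0 (61.3% of all genes), and the median was 0.31. With a higher value, 9 had such a p (4.91% of all genes). Without the 2 hearts the median was 0.12 with 1 such gene. Postn encodes periostin, a matricellular protein of activated fibroblasts. At week 4, Postn had 95.5, 359, 104 and 289.6 FPKM in KOTAC hearts, against 125, 19.7, 120.0 and 64.3 FPKM in WTTAC hearts. At week 8, it had 123, 253, 299 and 266 FPKM in KOTAC hearts, against 39.3, 205, 178 and 236 FPKM in WTTAC hearts. Its log2 difference was 1.06 with all hearts and 0.49 without the 2 WTTAC hearts near sham, neither called. Ctgf, a matricellular growth factor, had 0.98 and 0.43, and Col8a1, a short-chain collagen, had 0.72 and 0.42. P4ha2, which hydroxylates proline in collagen, had a difference that stayed as large without the 2 hearts (0.31, with 0.29 over all hearts). Summed fibroblast markers ranged from 1221 to 1826 FPKM in KOTAC hearts and from 791 to 1998 FPKM in WTTAC hearts, and their part in these values was not tested.

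**Figure D4:**
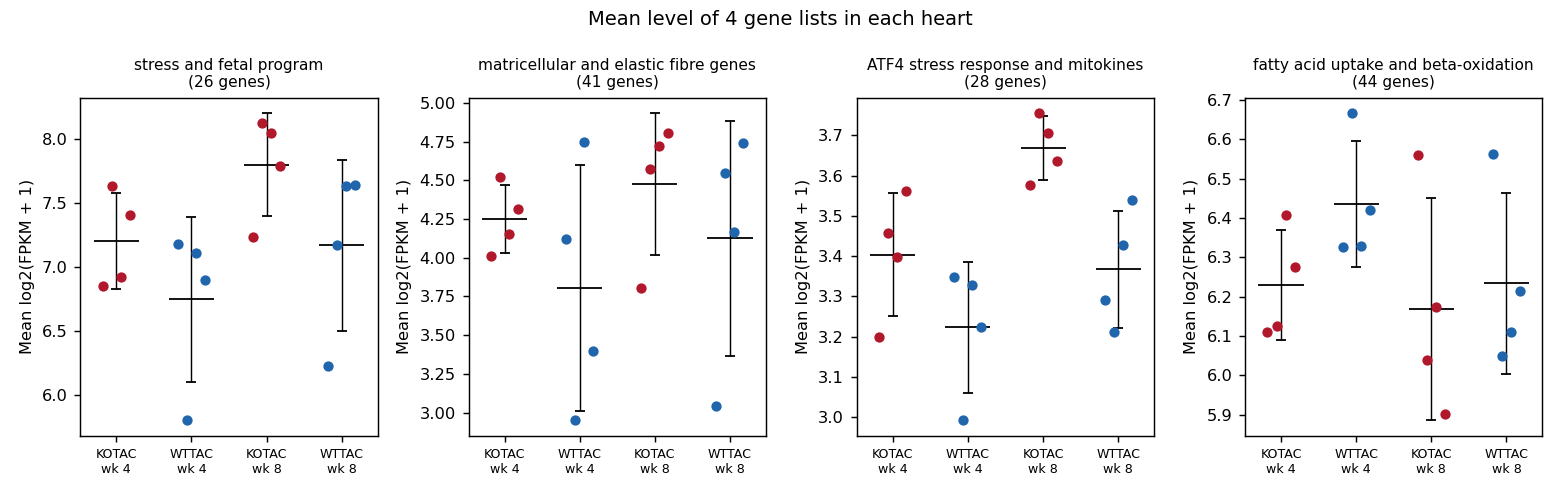
Mean log2(FPKM + 1) of 4 gene lists in each heart, with KOTAC hearts in red and WTTAC hearts in blue at weeks 4 and 8, the mean of the group as a line and the SD as bars (n = 4). In the stress list the lowest WTTAC hearts lie at 5.81 (week 4) and 6.23 (week 8). In the ATF4 list all 4 KOTAC hearts of week 8 lie above the WTTAC hearts, the nearest 2 at 3.58 and 3.54.

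Immediate early and cell cycle genes were higher in KOTAC hearts and moved little with the WTTAC hearts near sham. Of 23 tested immediate early genes, 21 were above 0 (61.3% of all genes), and the median was 0.29. With a higher value, 10 had an unadjusted p under 0.05 (4.91% of all genes). The median was 0.24 without the 2 WTTAC hearts near sham (7 such genes) and 0.23 without KOTAC heart 5 of week 4, which held high values of several of them. The leading members were the transcription factor genes Fosl2 (0.44), Maff (0.50) and Nr4a1 (0.78) and the regulator Ier5 (0.41), all log2 differences and none called. In sham hearts the median of the list was -0.09, and at weeks 1 and 2 it was -0.12. The medians of all genes were close to these, at -0.09 and -0.10.

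Of 29 tested cell cycle genes, 28 were above 0 (61.3% of all genes), and the median was 0.19. With a higher value, 8 had an unadjusted p under 0.05 (4.91% of all genes). This median was 0.18 without the 2 WTTAC hearts near sham, 8 such genes, and 0.20 without all 3 hearts, with 10. Aurka, a mitotic kinase, had 1.14, 1.06, 0.667 and 0.873 FPKM in KOTAC hearts of week 4, against 0.549, 0.394, 0.686 and 0.555 FPKM in WTTAC hearts. KOTAC hearts of week 8 had 0.702, 0.549, 0.800 and 0.495 FPKM, against 0.332, 0.235, 0.236 and 0.265 FPKM in WTTAC hearts. The levels were low, and the groups did not overlap at week 8 (3.56% of all genes separated upward at that week). The log2 difference was 0.34 (adjusted p = 0.202 from limma). Haus8, a subunit of the augmin complex that builds the mitotic spindle, had 16.6, 27.9, 24.6 and 27.6 FPKM in KOTAC hearts of week 4, against 19.3, 12.7, 17.0 and 20.2 FPKM in WTTAC hearts. The values at week 8 were 21.7, 24.3, 30.1 and 22.4 FPKM in KOTAC hearts, against 11.5, 11.7, 11.2 and 19.2 FPKM in WTTAC hearts. Again the groups separated at week 8 (3.56% of all genes upward), and the log2 difference was 0.65 (adjusted p = 0.201 from limma, not called). Between WTTAC and WTSH hearts of these weeks the median of the list was 0.02. Macrophage and monocyte markers summed to 236 to 405 FPKM in KOTAC hearts and 168 to 403 FPKM in WTTAC hearts, and their part in the result was not tested. Among 25 heat shock proteins, 18 were above 0 (61.3% of all genes), at a median of 0.11. With a higher value, 6 had an unadjusted p under 0.05 (4.91% of all genes). The median of these 25 genes was 0.13 without the 2 WTTAC hearts near sham and 0.060 without KOTAC heart 5 of week 4, and once scaled by the median of ratios, 4 members had higher and 2 had lower values at that p.

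Genes of oxidative metabolism were lower in KOTAC hearts by small amounts. Of 44 tested genes of fatty acid uptake and β-oxidation, 37 were below 0 (38.7% of all genes), the median was -0.16 and 7 had an unadjusted p under 0.05 with a lower value (2.44% of all genes). None was called. Those 7 were Lpl (lipoprotein lipase), Cd36 (the fatty acid transporter), the thioesterases Acot1 and Acot2, and Decr1, Acaa2 and Mlycd of mitochondrial and malonyl-CoA metabolism. At week 4, Cd36 had 340.3, 331, 361 and 342 FPKM in KOTAC hearts, against 368, 463, 414 and 464 FPKM in WTTAC hearts. At week 8, it had 461, 385, 388 and 363 FPKM in KOTAC hearts, against 464, 449, 509 and 430.1 FPKM in WTTAC hearts. The groups separated at week 4 (1.81% of all genes downward at that week), and the log2 difference was -0.26. At week 4, Lpl had 1333, 1169.8, 1128 and 1126 FPKM in KOTAC hearts, against 1398, 1365, 1209 and 1237 FPKM in WTTAC hearts. At week 8, Lpl had 1290.0, 1037, 1095 and 1226 FPKM in KOTAC hearts, against 1496, 1605, 1610.0 and 1343 FPKM in WTTAC hearts, with a log2 difference over both weeks of -0.26. The groups of Lpl overlapped at week 4 and separated at week 8 (0.667% of all genes downward at that week). The carnitine palmitoyltransferases differed less, with -0.07 for Cpt1b and -0.19 for Cpt2. Without the 2 WTTAC hearts near sham the median of the list was -0.06 with 2 such genes (1.76% of all genes), and without all 3 hearts -0.09.

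The TCA cycle had 26 of 28 tested genes below 0 (38.7% of all genes) with a median of -0.09. None had an unadjusted p under 0.05. The other 35 tested complex I subunits had 32 below 0 at a median of -0.07, again with none at that p, so that Ndufs4 was the one subunit called. In sham hearts of weeks 4 and 8 all 35 were below 0 in KOSH against WTSH (87.3% of all genes), with a median of -0.12, where the median of all genes was -0.09. Complexes III to V had 32 of 38 genes below 0 with a median of -0.07. Without the 2 WTTAC hearts near sham these medians were -0.04 for the TCA cycle, -0.02 for complex I and -0.01 for complexes III to V. Of 25 genes of ketone and branched-chain amino acid use, 22 were below 0 (38.7% of all genes). With a lower value, 4 had an unadjusted p under 0.05 (2.44% of all genes). They were Ppm1k (the phosphatase that activates branched-chain keto acid oxidation, -0.46), Acadsb (a branched-chain acyl-CoA dehydrogenase, -0.20), and Bckdhb and Dbt (-0.34 and -0.27). Bckdhb and Dbt encode subunits of the enzyme complex that Ppm1k activates. The median of these 25 genes was -0.10, and without the 2 WTTAC hearts near sham it was -0.06 with 2 such genes. Ppm1k was also at a lower value in KOSH than in WTSH hearts (-0.34). Glucose uptake and glycolysis genes were mixed, with 20 of 31 above 0 (61.3% of all genes). Their median was 0.06, or 0.0067 without these 2 hearts.

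**Figure D5:**
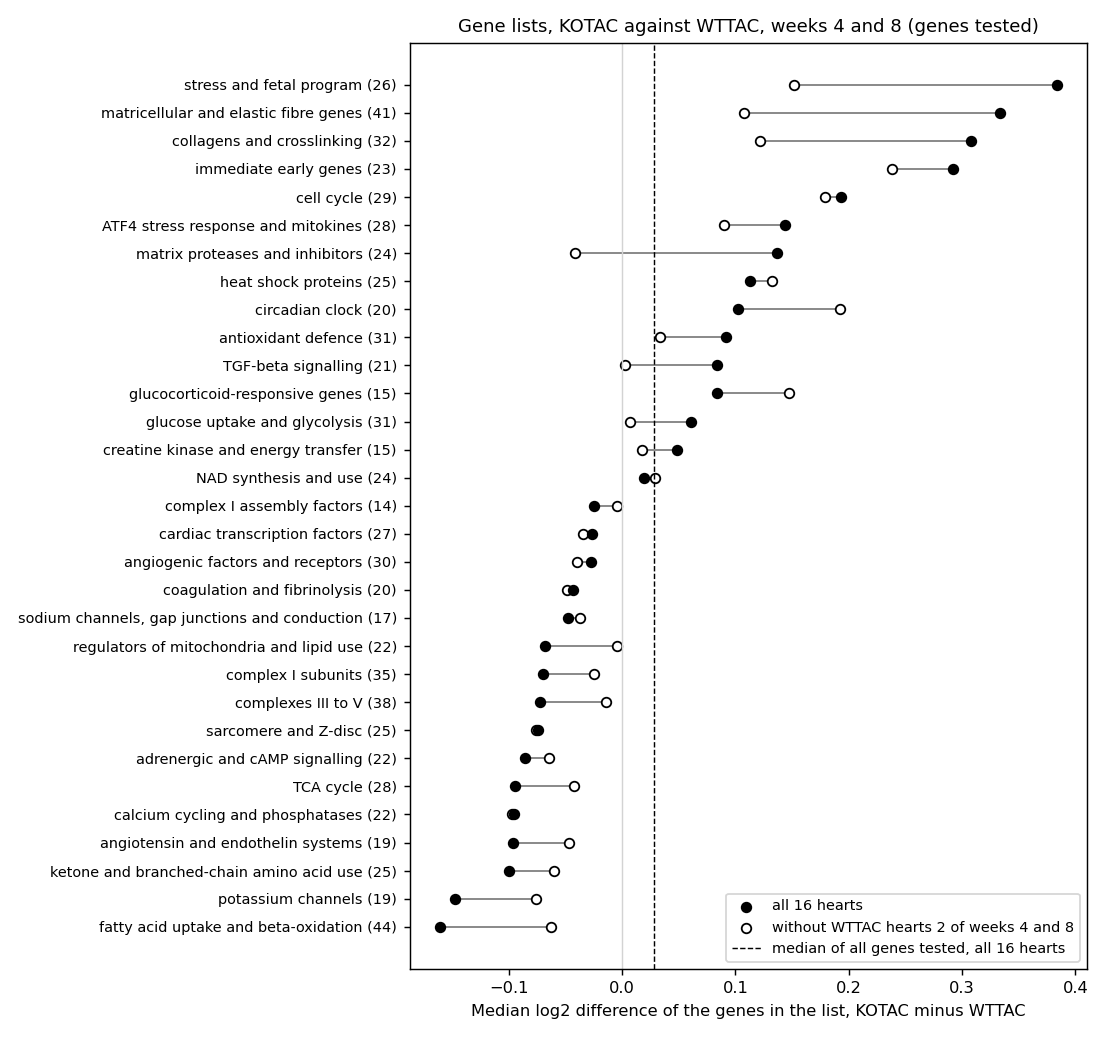
Median log2 difference between KOTAC and WTTAC hearts at weeks 4 and 8 for each gene list (number of genes tested in parentheses), with filled points for all 16 hearts, open points without the 2 WTTAC hearts near sham, and a dashed line for the median of all genes tested. The stress list moves from 0.38 to 0.15 and the fatty acid list from -0.16 to -0.06 when the hearts are left out. The cell cycle list stays at 0.19 and 0.18. Among WTTAC hearts of its week, each left-out heart had the lowest stress list mean and the highest fatty acid list mean.

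Genes of excitation and calcium cycling lay below 0 for the most part. Of 19 potassium channel genes, 14 were below 0 (38.7% of all genes) at a median of -0.15. With a lower value, 6 had an unadjusted p under 0.05 (2.44% of all genes). They were led by Kcnj3, a subunit of the acetylcholine-activated channel. At week 4, Kcnj3 had 5.48, 6.11, 8.12 and 7.21 FPKM in KOTAC hearts, against 10.9, 17.6, 8.09 and 8.52 FPKM in WTTAC hearts. Its week 8 values were 5.31, 4.27, 2.60 and 4.52 FPKM in KOTAC hearts, against 10.7, 10.8, 5.36 and 4.40 FPKM in WTTAC hearts. The groups overlapped through 1 WTTAC heart at each week, and the log2 difference was -0.67 (adjusted p = 0.202 from limma, not called), or -0.58 without the 2 atrial-high WTTAC hearts. The WTTAC hearts near sham had 17.6 FPKM of Kcnj3 at week 4, the highest value, and 10.7 FPKM at week 8. Kcnj2, the inward rectifier of the ventricle, had -0.35. The median of the list was -0.08 with 2 such genes once the 2 WTTAC hearts near sham were left out. Of 22 calcium cycling genes, 19 were below 0 (38.7% of all genes). With a lower value, 3 had an unadjusted p under 0.05 (2.44% of all genes). They were Hrc (-0.34), Pln (-0.24) and Atp2a2 (-0.36), which encode a calcium-binding protein of the sarcoplasmic reticulum, phospholamban and the calcium pump it inhibits. The median of the calcium list was -0.10 with all hearts and also -0.10 without the 2 WTTAC hearts near sham, where 1 gene had such a p. Cardiomyocyte markers, of which Pln is one, summed to 38484 to 50175 FPKM in KOTAC hearts and 42907 to 52544 FPKM in WTTAC hearts, and their part in these values was not tested.

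Adra1b, the α1B-adrenergic receptor, was lower in each KOTAC heart than in each WTTAC heart of its week without being called. At week 4, Adra1b had 3.42, 4.83, 5.87 and 4.53 FPKM in KOTAC hearts, against 7.09, 11.1, 6.62 and 6.57 FPKM in WTTAC hearts. KOTAC hearts of week 8 had 2.90, 2.35, 2.44 and 2.31 FPKM, against 4.13, 5.82, 3.38 and 3.77 FPKM in WTTAC hearts. Its log2 difference was -0.60 (adjusted p = 0.319 from limma). Over all genes, 16 showed such a separation at both weeks, 6 higher (0.0439%) and 10 lower (0.0732%). Of these, Ndufs4 and Gm15151 were called. Penk, the preproenkephalin gene, had a log2 difference of -0.77 (adjusted p = 0.206) and Tbx5, a cardiac transcription factor that is one of the atrial markers, had -0.36 (adjusted p = 0.325), both from limma and not called. Without the 2 atrial-high WTTAC hearts they were at -0.87 and -0.30. The WTTAC hearts near sham held the highest Penk value of each week, 3.89 and 5.48 FPKM. Leaving those hearts out therefore moves the difference of Penk towards 0. Of 30 angiogenic factors and receptors, Angpt1 was the one called, Dll4, a Notch ligand of endothelial tip cells, had 0.29, and the median was -0.03. Endothelial markers summed to 886 to 1616 FPKM in KOTAC hearts and 902 to 1279 FPKM in WTTAC hearts.

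Of 20 tested clock genes, 14 were above 0 (61.3% of all genes) at a median of 0.10, with members in both directions. The median was 0.19 without the 2 WTTAC hearts near sham and 0.045 without WTTAC heart 3 of week 4. Arntl, the activating clock gene Bmal1, had 0.528, 0.780, 0.996 and 0.505 FPKM in KOTAC hearts of week 4, against 1.23, 0.954, 5.08 and 4.82 FPKM in WTTAC hearts. The values at week 8 were 0.808, 2.83, 1.77 and 3.10 FPKM in KOTAC hearts, against 0.728, 2.12, 3.48 and 2.49 FPKM in WTTAC hearts. At week 4 WTTAC hearts 3 and 4 lay well above the rest, and at week 8 the groups overlapped. The log2 difference of Arntl was -0.54 and that of Per2, a repressor of the clock, 0.45, and neither was called. Arntl and Per2 are known to peak at opposite times of day, and the hour of harvest was not found in the labels or the methods.

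The label of the tissue was borne out by its markers, with all 12 cardiomyocyte markers tested. Lung and thymus markers, which a dissection could carry along, were under 1 FPKM in all 16 hearts for all 8 and all 7 genes. Of 12 lymphocyte markers, 9 were under 1 FPKM in all 16 hearts, among them Cd3e, Cd4 and Cd8a. Mesothelial and epicardial markers, a list that includes Psca, summed to 2.87 to 7.44 FPKM in KOTAC hearts and 2.95 to 6.78 FPKM in WTTAC hearts, with 7 of 10 under 1 FPKM in all 16 hearts, Upk3b and Msln among them. Their part in the rise of Psca was not tested. Neutrophil markers summed to 3.46 to 21.4 FPKM in KOTAC hearts and 2.64 to 24.8 FPKM in WTTAC hearts.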

How the data were processed

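Cardiac RNA of 64 mice (16 groups of 4) was sequenced. TopHat, run by the authors on mm9, mapped the reads, and those mapped uniquely were kept. They deposited FPKM, estimated with Cufflinks on Ensembl release 66, as the sum over the transcripts of a gene. Of 30285 entries, 13653 reached an FPKM of 1 in 4 libraries or more and were analysed as log2(FPKM + 1), the pseudocount being 1. Differences were tested in R 4.3.3 by limma 3.58.1 (with a trend), with 1 mean for each of 16 groups over all 64 hearts, and comparisons were contrasts within weeks. A count test could not be used because FPKM showed no whole-read steps, so that the precision rests on how much hearts of a group differ. The procedure was tested on simulated data. Other steps used Python 3.11.15, pandas 2.3.3 and scipy 1.17.1.

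The comparison, the gene lists and the genes were chosen with earlier results of these data known. Named genes were Ndufs4, called genes, the genes of smallest p up to 12 in each direction, from each list the 3 members of largest moderated t, and genes known from the study or from those earlier results. Members of the ATF4 list whose promoter window held the motif, and Myl7, Synpo2l, Nr4a1, Slc3a2, Mlycd and Dbt, were named to complete counts, after their values were seen. Alternatives were another pseudocount, other filters, scalings and sample sets, no trend, array weights, a replicate block, a fold threshold and each heart left out. Leaving out the 3 hearts near sham or the 2 atrial-high hearts, and the list counts without hearts or by scaling, were added after seeing the data.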

Additional observations from a re-analysis of the deposited data

Results flagged for a closer look

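In 6 of 80 sets of 4 hearts (20 genes, each in 4 groups), 1 heart lay farther from the rest than Dixon's 95% limit allows, where chance gives about 1 in 20 sets. Atf3 had 22.4 FPKM in KOTAC heart 5 of week 4, the highest of 4, and Inhbb had 2.61 FPKM in the same heart, also the highest. Atf3 had 14.5 FPKM in KOTAC heart 4 of week 8, the highest of that group. Gm15151 had 10.4 FPKM in KOTAC heart 5 of week 8, the lowest of its group. Haus8 had 19.2 FPKM in WTTAC heart 7 of week 8, the highest, and Adra1b had 11.1 FPKM in WTTAC heart 2 of week 4, the highest and 1 of the hearts nearer to sham.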

How the results depend on the processing

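The count of 7 genes called at weeks 4 and 8 was 4 with a filter at an FPKM of 5, 134 with array weights, 1 with only the 32 TAC hearts in the model, 4 with only the 32 hearts of weeks 4 and 8, 2 without the 2 WTTAC hearts near sham, 3 without the 3 hearts near sham, 2 without the 2 atrial-high WTTAC hearts, 18 without 4 libraries of week 2 with a length bias and 2 at a fold change of at least 2, and it ranged from 4 to 18 without 1 heart. At week 4 it was 5 with no filter, 5 with only the 16 hearts compared, and 1 to 2 without 1 heart. At week 8 it was 14 with no filter, 41 with array weights, 1 with only the 16 hearts, 1 with only the TAC hearts, 1 without the 3 hearts or the 2 atrial-high ones, and 1 to 18 without 1 heart. The late minus early count was 478 with array weights. The TAC minus sham count was 1789 with array weights, 2 without the week 2 libraries and 0 to 1 without 1 heart. The causes of these shifts were not tested. Replicate numbers did not pair the samples, since the deviations of same-numbered hearts correlated between -0.357 and 0.113. With the number as a replicate block, 21 genes were called at weeks 4 and 8 and 9 at week 8.

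Chac1 was -0.18 with the replicate block, and Vldlr was -0.0074 with median-of-ratios scaling, -0.0052 with quantile normalization, -0.018 without the 2 atrial-high WTTAC hearts and -0.0066 to 0.053 without 1 heart. No other gene of those named reversed in any alternative run. Of the values of named genes under all alternatives, 1949 kept their direction and their side of the threshold, 63 no longer passed it and 46 passed it newly, 22 of these with array weights. With a pseudocount of 0.1, Gdf15, Gdf6, Psca and Arc were not called. Depth is unknown from FPKM, so that no counting error can be given for low genes such as Arc and Psca.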
